A study of Bos taurus with 12 samples.

Results

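The genes described here are the amino acid transporters of the solute carrier families SLC1, SLC3, SLC6, SLC7, SLC36, SLC38 and SLC43, measured in bovine cumulus cells on 12 2-colour microarrays. Their probes were found by the gene symbol in the array's platform annotation, a rule that uses no measured value, though the families were picked for description with earlier results of these data known. This gave 67 probes for 52 genes, among the 15229 genes that the array's 43794 probes name. Of the 67 probes, 60 probes for 46 genes passed the filter on dim probes, which kept 36321 probes in all. Such a filter keeps a probe that is bright in 1 channel only, so the 60 are not all members, and 6 of them exceeded background on 3 arrays of a stage in 1 channel only. A probe kept through the channel where it is bright was favoured to differ in that direction. Counts are therefore also given for the 54 members that exceeded background on 3 arrays of a stage in each channel, a choice made after the values were seen. The channels could do so in different stages, and SLC38A1 did so in Cy3 on the GV2 arrays alone. A few members carry something other than amino acids: SLC6A2 and SLC6A4 move monoamines, SLC6A8 moves creatine and SLC43A3 moves purine nucleobases.

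Cumulus cells are the somatic cells that surround the oocyte in the follicle, and the groups follow the chromatin of the enclosed oocyte, which condenses from stage GV0 through GV1 and GV2 to GV3 while its nucleus, the germinal vesicle, is intact. The cells came from slaughterhouse ovaries, and the cumulus cells of 10 oocytes of 1 stage made 1 pool of RNA. Amplified RNA of GV1, GV2 or GV3 carried the red dye Cy5 and was hybridised with GV0 RNA carrying the green dye Cy3, on 4 arrays per stage, and no animal's age, breed or treatment is given in the labels. Each slide held the 4 arrays of 1 stage in 4 areas, so slide and stage cannot be told apart, nor can dye and GV0 in ratios to GV0. The Cy3 signals show that the same 4 GV0 pools, 1 per area number, were used on the 3 slides. The labels do not tie pools to animals, so the p-values rest on the spread among pools, which may be technical.

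Amino acid carriers differ in what drives them and in the direction of transport. The SLC38 and many SLC6 proteins use the sodium gradient to concentrate neutral amino acids in the cell, some SLC36 proteins, such as SLC36A1, are coupled to protons, the SLC1 proteins carry glutamate or exchange small neutral amino acids, and the SLC7 proteins are mostly exchangers that need a heavy chain of the SLC3 family to reach the membrane. In mice the oocyte takes up some amino acids poorly and receives them from cumulus cells through gap junctions, and mouse oocytes promote Slc38a3 expression in those cells. Levels of SLC38A2 and SLC7A5 are known in other cells to respond to amino acid supply through the transcription factor ATF4, and SLC7A5 supplies leucine, a signal to the kinase mTORC1.

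The median spot intensity over probes was 131.8 to 230.5 in Cy5 and 276.5 to 372.7 in Cy3, and 59.93% to 83.57% of probes in Cy5 and 65.81% to 79.46% in Cy3 exceeded the negative control spots by 2 SD. Of the 60 member probes, 29 probes for 28 genes were above that background in both channels of all 12 arrays. All 14 cumulus and granulosa markers listed were measured, and 13 of them were above background on every array in both channels. They moved too, with 0 higher and 2 lower in GV1, 2 higher and 1 lower in GV2 and 0 and 2 in GV3: INHA and HSD3B1 were higher in GV2, NR5A1 was lower in GV1 and GV3 and GATM was lower in all 3. Some markers of other cells moved with the stages: the mean level of 8 theca and stroma markers lay between 7.79 and 9.84 (log2 signal) on GV1 arrays, with array GV1 3 the high one, against 7.82 to 8.01 in GV0, and 1 of the 8 was higher and 1 lower in GV1 and likewise in GV2. Of 5 leukocyte markers measured, 3 were higher in GV1, 1 in GV2 and 2 in GV3 (2, 1 and 2 without BOLA-DRA, which was kept through Cy5 alone), and their mean level was 7.60 to 8.35 in GV1, 7.38 to 8.51 in GV2 and 7.47 to 8.38 in GV3, against 7.05 to 7.98 in GV0. PTPRC, the brightest of them in GV0, had means below 0, of -0.50, -0.25 and -0.14 (limma adjusted p of 0.18, 0.522 and 0.738). Its GV0 pools were at 8.89, 11.54, 10.10 and 12.64 for areas 1 to 4. Of 7 endothelial markers 2 were lower in each comparison, with mean levels of 7.22 to 7.38 in GV1, 7.16 to 7.40 in GV2 and 7.26 to 7.31 in GV3, against 7.38 to 7.60 in GV0. Of 9 oocyte markers 1, 2 and 1 were higher and 1, 1 and 2 lower in GV1, GV2 and GV3, and without ZP4, which was kept through Cy5 alone, 0, 1 and 0 were higher. In GV2 1 of 4 red blood cell markers was higher. Over all 13534 genes measured, 3.78%, 4.58% and 4.30% were higher and 5.69%, 5.73% and 6.70% lower in GV1, GV2 and GV3. These marker lists are short, so counts of 1 or 2 are not read as a difference from that share. The part of other cells in the results below was not tested, and fewer cells of a type cannot be told apart from less RNA per cell in such pools.

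In cumulus cells of GV1 oocytes, SLC38A2, SLC38A1, SLC36A1 and SLC7A9 were higher than in GV0, by 1.2-fold to 1.68-fold (the 1.68-fold is SLC38A1, above background in GV0 on 1 of the 4 arrays). SLC43A3, SLC36A4, SLC6A8, SLC6A20, SLC1A5 and SLC6A18 (kept through Cy3 alone, so no support for a difference) were lower, by 1.24-fold to 1.85-fold. Together these are 10 of 60 member probes, 4 higher and 6 lower (16.7%), at an adjusted p under 0.05 in limma with Benjamini-Hochberg adjustment over all kept probes. Over those 36321 probes the share was 10.8%, with 4.45% higher and 6.39% lower. Of the 54 members above background in each channel 4 were higher and 5 lower, where 3.53% of such probes were higher and 5.37% lower. The median log2 ratio of the members was 0.02, against 0.00 for all kept probes, and their median absolute log2 ratio was 0.13, against 0.15. With the area number as a block, which takes out the differences between the GV0 pools, 20 members passed (10 higher, 10 lower), where 14.6% of all probes were higher and 14.9% lower. Against GV0, p-values with the block leave out how much GV0 pools differ, so they hold for these 4 pools only. With only the 4 GV1 arrays in the model none of the 60 passed, and 0% of all kept probes did. Leaving out area 1, 2, 3 or 4 left 5, 3, 3 and 3 members, and 7.24%, 2.77%, 3.57% and 2.99% of all kept probes. Leaving out array GV1 1, GV1 2, GV1 3 (the array high in stroma markers) or GV1 4 left 5, 4, 4 and 3 members, and 6.85%, 4.63%, 4.88% and 3.58% of all kept probes.

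In cumulus cells of GV2 oocytes, SLC38A2, SLC36A1 and SLC7A9 were higher than in GV0, by up to 1.46-fold. SLC6A20, SLC6A8, SLC1A2 and SLC6A18 (kept through Cy3 alone, so no support for a difference) were lower, by 1.19-fold to 1.3-fold. Together that is 7 of 60 member probes, 3 higher and 4 lower (11.7%), in limma, where 11.8% of all kept probes passed, 5.42% higher and 6.34% lower. Of the 54 members above background in each channel 3 were higher and 3 lower, where 4.37% of such probes were higher and 5.48% lower. The median absolute log2 ratio was 0.16 in the members, against 0.15 in all kept probes. With the area number as a block 21 members passed (12 higher, 9 lower), where 15.5% of all probes were higher and 14.3% lower. None passed with only the 4 GV2 arrays in the model, and 0% of all kept probes did. Leaving out area 1, 2, 3 or 4 left 3, 2, 4 and 4 members, and 6.53%, 3.29%, 5.98% and 3.39% of all kept probes. Leaving out array GV2 1 or GV2 2 left 4 members each, and 7.36% and 5.65% of all kept probes.

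In cumulus cells of GV3 oocytes, SLC38A2, SLC38A1 and SLC36A1 were higher than in GV0, by 1.2-fold to 1.64-fold. SLC36A4, SLC6A20, SLC1A5, SLC6A8 and SLC6A18 (kept through Cy3 alone, so no support for a difference) were lower, by 1.2-fold to 1.63-fold. Limma called 8 of 60 member probes, 3 higher and 5 lower (13.3%), against 12.1% of all kept probes (5.11% higher, 6.99% lower). Among those above background in each channel 3 of 54 were higher and 4 lower, where 4.48% of such probes were higher and 6.22% lower. Members and all kept probes had the same median absolute log2 ratio, 0.16. With the area number as a block 20 members passed (10 higher, 10 lower), where 14.8% of all probes were higher and 15.1% lower. None passed with only the 4 GV3 arrays in the model, and 0% of all kept probes did. Leaving out area 1, 2, 3 or 4 left 5, 3, 4 and 4 members, and 7.55%, 3.90%, 5.42% and 4.42% of all kept probes. Leaving out array GV3 1, GV3 3 or GV3 4 left 5 members each, and 7.34%, 6.73% and 5.26% of all kept probes. The 3 comparisons share the GV0 pools, so a gene that passed in several of them was not measured against separate controls. Over the 3 comparisons there were 25 calls of a member, and each was refitted 8 times, without 1 area or without 1 array of its stage. In these refits 3 calls held each time and 5 were lost each time.

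**Figure D1:**
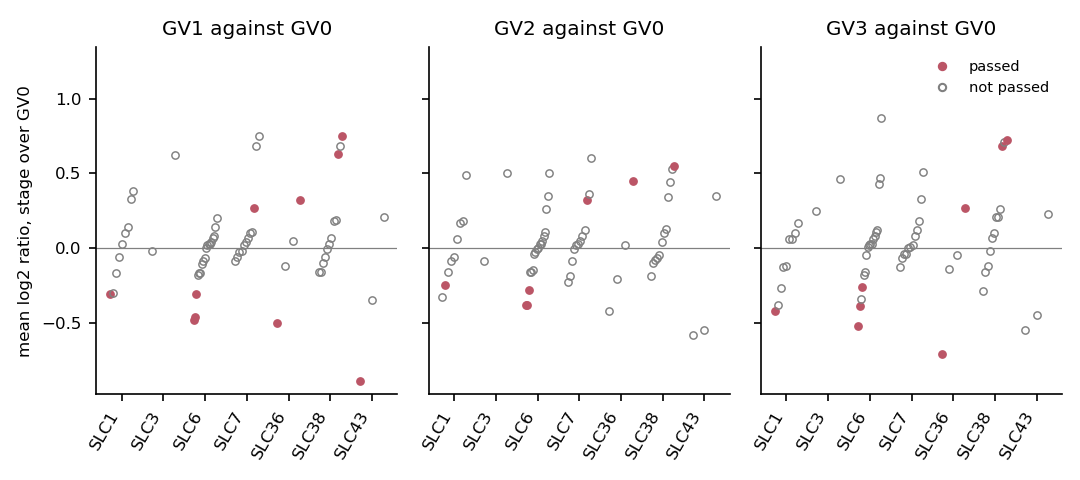
Mean log2 ratio of each of the 60 member probes in GV1, GV2 and GV3 against GV0 (n = 4 arrays each), by family, with probes in order of value and filled where the adjusted p was under 0.05. The probes that passed in SLC6 and SLC1 lie below 0 and those in SLC38 above 0 in each panel, and SLC36 holds SLC36A1 above 0 and SLC36A4 below 0.

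SLC38A2, the sodium-coupled neutral amino acid transporter SNAT2, takes up alanine, serine, glutamine and other small neutral amino acids. In log2 ratio to GV0, its probe EMBV3_07105 was at 1.11, 0.89, 0.25 and 0.26 in GV1, at 0.65, 0.53, 0.30 and 0.72 in GV2 and at 0.75, 0.87, 0.53 and 0.71 in GV3, for areas 1 to 4. All 12 ratios were above 0, and the Cy5 signals of all GV2 and GV3 arrays and of 3 GV1 arrays lay above those of all 4 GV0 pools. The mean ratio was 0.63 ± 0.14 in GV1 (SE, n = 4, limma adjusted p = 0.0168), 0.55 ± 0.14 in GV2 (adjusted p = 0.0272) and 0.72 ± 0.14 in GV3 (adjusted p = 0.00837). In the 8 refits with 1 area or array left out, the call was lost in 4 for GV1, 6 for GV2 and 1 for GV3, with adjusted p of up to 0.129, 0.128 and 0.0742.

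The other 2 SLC38A2 probes did not pass. EMBV3_31844 had means of 0.68, 0.53 and 0.71 in GV1, GV2 and GV3, but its ratios were below 0 in area 1 of each stage (-0.79, -0.82 and -0.99) and above 0 in the other areas, by up to 1.79. Its GV0 pools differed, at log2 signals of 8.10, 7.71, 6.57 and 7.06 for areas 1 to 4, and its adjusted p was 0.433, 0.557 and 0.406 in limma, and 0.00166, 0.00445 and 0.00104 with the area block. EMBV3_40405 averaged 0.19, 0.34 and 0.21, with adjusted p of 0.424, 0.139 and 0.347 in limma and 0.0209 in GV2 with the area block. All 3 probes thus had means above 0 in the 3 stages, and the spread between areas was widest for EMBV3_31844.

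SLC38A1 (SNAT1), a glutamine carrier of the same type, gave ratios of 0.98, 0.14, 1.08 and 0.79 in GV1, 0.62, 0.33, 0.35 and 0.44 in GV2 and 0.27, 0.39, 0.97 and 1.08 in GV3. Its Cy5 signals on all 12 arrays lay above the means of the 4 GV0 pools, and the ratios varied most between areas in GV1 and GV3. The GV0 pool of area 3 was uneven, at 6.65, 7.66 and 6.49 on its GV1, GV2 and GV3 arrays, and the 7.66 exceeded most of the Cy5 signals. The means were 0.75 ± 0.16 (limma adjusted p = 0.0167), 0.44 ± 0.16 (adjusted p = 0.108, and 0.0395 with the area block) and 0.68 ± 0.16 (adjusted p = 0.022). The call was lost in 6 of 8 refits for GV1 and in 4 for GV3, with adjusted p of up to 0.107 and 0.156. The probe was above background in Cy5 on 12 of 12 arrays, and in Cy3 on 1 of 4 GV1 arrays and 6 of 12 in all, so the GV0 level lies close to the detection limit.

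Of the other SLC38 carriers none passed in limma. SLC38A3 (SNAT3), the glutamine and histidine carrier named above for mouse cumulus cells, averaged -0.16, -0.19 and -0.29 in GV1, GV2 and GV3, with an adjusted p of 0.0731 in GV3 that was 0.0157 with the area block. SLC38A5 (SNAT5), also a glutamine carrier, averaged -0.10, -0.08 and 0.21 (adjusted p of 0.822, 0.861 and 0.592), and its GV0 pools ranged over 1.21 log2 units, more than any of the 3 stages in Cy5 (0.31, 0.65 and 0.43). SLC38A4, SLC38A6, SLC38A7, SLC38A10 and SLC38A11 had means between -0.16 and 0.26. With the area block alone, SLC38A10 passed in GV1 (adjusted p = 0.0357) and GV3 (0.0339), SLC38A11 in GV1 at EMBV3_21781 (0.0347) and SLC38A6 in GV3 (0.0282). The SLC38A11 probe exceeded background on 3 or more arrays of a stage in Cy5 of GV1 only, and never in Cy3, so its being higher there is no support for a difference. SLC38A9, a lysosomal arginine sensor, has no probe under that symbol and was not analysed here.

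**Figure D2:**
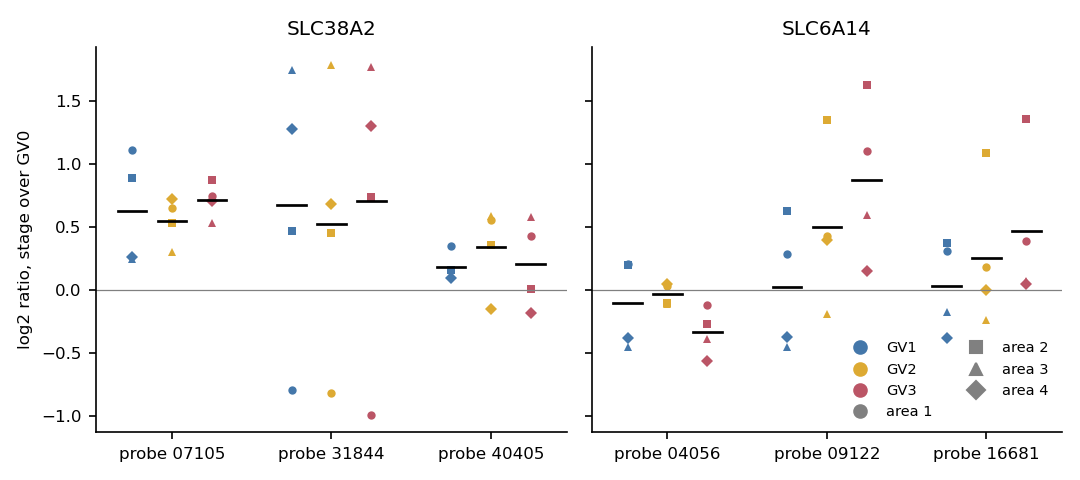
Log2 ratio to GV0 of the 3 kept probes of SLC38A2 and of SLC6A14, 1 point per array (colour: stage, shape: area), with the mean of 4 arrays as a bar. For SLC38A2 the 12 points of EMBV3_07105 are above 0 while area 1 of EMBV3_31844 is below 0, and for SLC6A14 the GV3 mean is above 0 for EMBV3_09122 and EMBV3_16681 and below 0 for EMBV3_04056.

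Of the SLC36 carriers, SLC36A1 was higher than GV0 in all 3 comparisons and SLC36A4 was lower in GV1 and GV3. SLC36A1 (PAT1), which exports glycine, alanine and proline from lysosomes and is known in cultured cells as a partner of mTORC1 signalling, had ratios of 0.52, 0.17, 0.17 and 0.44 in GV1, 0.51, 0.45, 0.38 and 0.45 in GV2 and 0.36, 0.21, 0.13 and 0.37 in GV3. All were above 0, with the GV2 arrays the closest together, and the Cy5 signals of 3 GV1, 3 GV2 and 4 GV3 arrays lay above all GV0 pools. It was higher by 0.32 ± 0.07 in GV1 (limma adjusted p = 0.0165), 0.45 ± 0.07 in GV2 (adjusted p = 0.00354) and 0.27 ± 0.07 in GV3 (adjusted p = 0.0316). The GV2 call held in all 8 refits (adjusted p of 0.0115 to 0.0403), while that of GV1 was lost in 5 and that of GV3 in 7, with adjusted p of up to 0.117 and 0.158.

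SLC36A4 (PAT4), a carrier of proline and tryptophan with high affinity, had ratios of -0.41, -0.70, -0.32 and -0.58 in GV1, -0.16, -0.53, -0.59 and -0.40 in GV2 and -0.93, -1.17, -0.37 and -0.36 in GV3. Every array was below 0, and in GV3 areas 1 and 2 lay further down than areas 3 and 4. The GV1 and GV3 signals lay below those of all GV0 pools, while 1 GV2 array overlapped them. Means were -0.50 ± 0.13 in GV1 (limma adjusted p = 0.0353), -0.42 ± 0.13 in GV2 (adjusted p = 0.0628, and 0.0265 with the area block) and -0.71 ± 0.13 in GV3 (adjusted p = 0.00769). All 8 refits lost the GV1 call (adjusted p of 0.0682 to 0.145), and 1 lost that of GV3, without area 2 (adjusted p = 0.0614). SLC36A2, a carrier of the same substrates as SLC36A1, and SLC36A3 had means between -0.21 and 0.05 and did not pass in limma, and SLC36A3 passed in GV2 with the area block (adjusted p = 0.0394).

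In the SLC6 family SLC6A20 and SLC6A8 were lower than in GV0 in each comparison, 2 of the 14 probes above background in each channel (14.3%), where 5.37%, 5.48% and 6.22% of such probes were lower in GV1, GV2 and GV3. With the area block 1, 1 and 2 of the 14 were higher and 3, 2 and 3 lower. Of all such probes 13.9%, 14.8% and 14.5% were then higher and 14.1%, 13.7% and 14.6% lower. Over all 18 kept SLC6 probes SLC6A18 makes a further lower call in each comparison. SLC6A20 (SIT1), the sodium-coupled carrier of proline and other imino acids, had ratios of -0.51, -0.52, -0.36 and -0.43 in GV1, -0.40, -0.54, -0.41 and -0.16 in GV2 and -0.64, -0.62, -0.39 and -0.44 in GV3. All 12 Cy5 signals lay below those of the 4 GV0 pools, and area 4 of GV2 was the closest to 0. Means were -0.46 ± 0.07 (limma adjusted p = 0.00337), -0.38 ± 0.07 (adjusted p = 0.00788) and -0.52 ± 0.07 (adjusted p = 0.00158) in GV1, GV2 and GV3. The GV1 and GV3 calls held in all 8 refits, with adjusted p of up to 0.0379 and 0.0244, and that of GV2 was lost without area 2 (adjusted p = 0.0724).

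SLC6A8, the creatine carrier, had ratios of -0.39, -0.67, -0.45 and -0.40 in GV1, -0.42, -0.57, -0.46 and -0.08 in GV2 and -0.44, -0.44, -0.45 and -0.24 in GV3. Each array was below 0, with area 4 the nearest to 0 in GV2 and GV3, and all GV1 signals and 3 of 4 in GV2 and GV3 lay below those of the GV0 pools, while 1 GV2 array lay above them. It was lower by 1.39-fold in GV1 (log2 -0.48 ± 0.08, limma adjusted p = 0.0057), 1.3-fold in GV2 (-0.38, adjusted p = 0.0141) and 1.31-fold in GV3 (-0.39, adjusted p = 0.0117). Of 8 refits, 2, 5 and 4 lost the call in GV1, GV2 and GV3, with adjusted p of up to 0.053, 0.0911 and 0.0875. GATM, which makes the precursor of creatine and was measured as a gene of amino acid use, had log2 ratios of -1.64, -2.25 and -1.70 in GV1, GV2 and GV3 (limma adjusted p of 0.016, 0.00361 and 0.0118), and it is also among the cumulus markers.

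SLC6A18, a carrier of glycine and other neutral amino acids in the kidney, averaged -0.31, -0.28 and -0.26 in GV1, GV2 and GV3 (SE 0.07, limma adjusted p of 0.0214, 0.029 and 0.0376). It was above background in Cy5 on 1 GV1, 0 GV2 and 2 GV3 arrays, and in Cy3 on all 12. The probe therefore passed the filter through GV0 alone, so its being lower in the stages is no support for a difference, though it is 1 of the lower members counted in each comparison. On the GV2 arrays its mean log2 signal was 6.76 in GV2, not well above background, and 7.04 in GV0. Among the 8 refits, 6 lost the call in GV1 and all 8 did in GV2 and GV3, with adjusted p of up to 0.116, 0.12 and 0.223.

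SLC6A14, which takes up most neutral and cationic amino acids, has 3 kept probes that differed in direction. EMBV3_09122 had ratios of 0.29, 0.63, -0.45 and -0.37 in GV1, 0.43, 1.35, -0.19 and 0.40 in GV2 and 1.10, 1.63, 0.60 and 0.15 in GV3. It was above background on 4 of 4 GV3 arrays, and on none of the same arrays in GV0, where its mean log2 signal of 6.41, against 7.28 in GV3, was not well above background. The limma adjusted p was 0.0649 for a GV3 mean of 0.87 ± 0.28, and 0.000953 with the area block, and in GV2 it was 0.274 for a mean of 0.50, and 0.0121 with the area block. The probe passed the filter through Cy5 of GV3 alone (1 GV1, 2 GV2 and 4 GV3 arrays), so its being higher in GV3 is no support for a difference.

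Probe EMBV3_16681 averaged 0.47 in GV3 (adjusted p = 0.241, and 0.0108 with the area block) and EMBV3_04056 averaged -0.34 (adjusted p = 0.0808, and 0.0228 with the area block), with EMBV3_04056 above background on 0 of 4 GV3 arrays. No direction is given for the gene.

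Among the other SLC6 members, probe EMBV3_11035 of SLC6A15, a branched-chain amino acid and proline carrier, averaged 0.14 in GV1 and SLC6A16 averaged -0.18, both past the threshold only with the area block (adjusted p of 0.0361 and 0.0389). SLC6A6, the taurine carrier, averaged 0.00, 0.03 and 0.08 ± 0.06 in GV1, GV2 and GV3 (limma adjusted p of 0.98, 0.805 and 0.424). SLC6A9 (GLYT1), the glycine carrier that mouse oocytes use to set their volume, averaged 0.04, 0.11 and 0.03 at probe EMBV3_14027 and -0.17, -0.16 and -0.18 at EMBV3_24497, with adjusted p between 0.169 and 0.867. Among the monoamine carriers, SLC6A4 had ratios of 0.48, 0.24, -0.14 and 0.25 in GV1, 1.02, 0.40, -0.35 and 0.30 in GV2 and 1.09, 0.39, -0.33 and 0.57 in GV3. Area 3 was below 0 in each stage, where its GV0 pool was the brightest (10.27, against 9.02 to 9.69 in the other pools). The SLC6A4 means of 0.20, 0.35 and 0.43 did not pass in limma, and with the area block GV2 and GV3 did (adjusted p of 0.0209 and 0.00807).

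**Figure D3:**
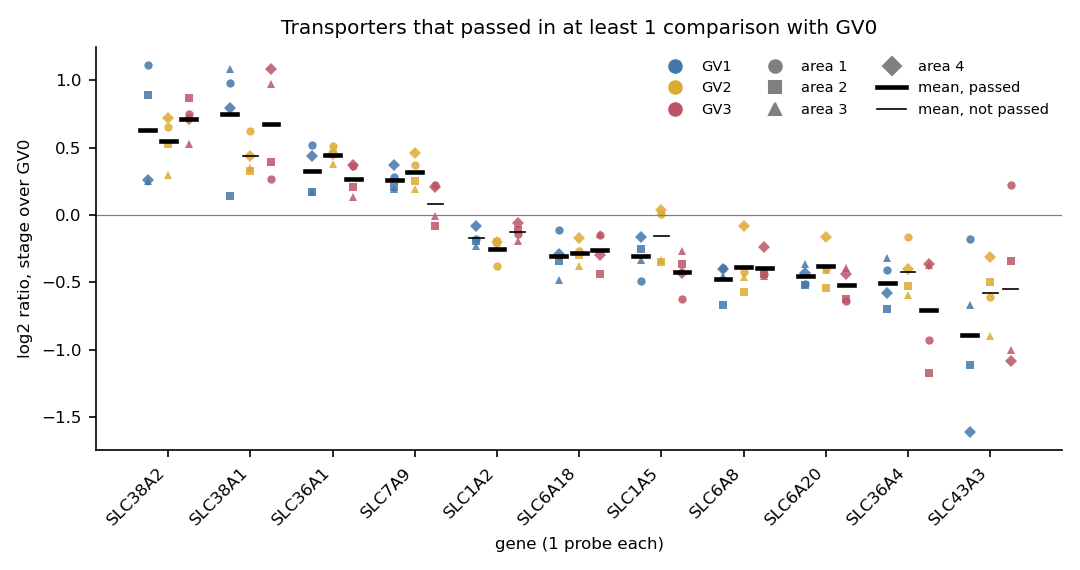
Log2 ratio to GV0 of the 11 probes that passed in at least 1 comparison, 1 point per array (colour: stage, shape: area), with the mean of 4 arrays as a bar, thick where the adjusted p was under 0.05. SLC38A2 and SLC38A1 sit highest, SLC43A3 lowest, and the points of SLC38A2, SLC38A1 and SLC36A1 are all above 0, those of SLC1A2, SLC6A18, SLC6A8, SLC6A20 and SLC36A4 all below.

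In the SLC1 family, SLC1A5 (ASCT2), an exchanger through which many cells take up glutamine, had ratios of -0.49, -0.25, -0.33 and -0.16 in GV1, 0.01, -0.35, -0.33 and 0.04 in GV2 and -0.62, -0.36, -0.27 and -0.43 in GV3. GV1 and GV3 were below 0 on every array and GV2 in areas 2 and 3 only, and all GV1 and 3 of 4 GV3 signals lay below the GV0 pools. Means were -0.31 ± 0.09 in GV1 (limma adjusted p = 0.0451) and -0.42 ± 0.09 in GV3 (adjusted p = 0.0115), and in GV2 the mean of -0.16 did not pass (adjusted p = 0.27). The GV1 call was lost in all 8 refits (adjusted p of 0.0832 to 0.151), and that of GV3 in 4 (up to 0.0645). The difference between GV3 and GV2 was -0.26, with a 95% interval of -0.53 to 0.01 (-0.54 to 0.01 with the area block).

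SLC1A2, a glutamate carrier, averaged -0.25 ± 0.05 in GV2 (limma adjusted p = 0.0109), -0.17 in GV1 (adjusted p = 0.0524, and 0.0251 with the area block) and -0.12 in GV3 (adjusted p = 0.133). All 12 ratios were below 0 and none was lower than -0.38. Its signal was low, at 6.89 to 7.37 in Cy5, above background on 11 of 12 arrays there and on 12 of 12 in Cy3. The GV2 call was lost in 4 of 8 refits, those without 1 area (adjusted p of up to 0.0788). SLC1A1, the glutamate and cysteine carrier, averaged 0.10, 0.06 and 0.06 ± 0.06 and did not pass.

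SLC43A3, the purine nucleobase carrier, had ratios of -0.18, -1.11, -0.67 and -1.61 in GV1, -0.61, -0.50, -0.90 and -0.31 in GV2 and 0.22, -0.34, -1.0 and -1.08 in GV3. All GV1 signals lay below the 4 GV0 pools, but the sizes differed between areas, from near 0 in area 1 to the largest in area 4. The GV1 mean was -0.89 ± 0.24 (limma adjusted p = 0.0382, lost in 6 of 8 refits with values of up to 0.193), and the GV2 and GV3 means of -0.58 and -0.55 did not pass (adjusted p of 0.141 and 0.159). SLC43A1 (LAT3), a carrier of leucine and other large neutral amino acids, was above 0 in area 1 (0.25, 0.05 and 0.19 in GV1, GV2 and GV3) and below 0 in areas 2 to 4 (-0.88 to -0.41). Its adjusted p was 0.28, 0.095 and 0.163 in limma, and 0.00263, 0.000347 and 0.000663 with the area block.

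SLC7A9, the light chain of the cystine and basic amino acid exchanger of kidney and gut, averaged 0.27 ± 0.07 in GV1 (limma adjusted p = 0.0312), 0.32 ± 0.07 in GV2 (adjusted p = 0.0144) and 0.08 ± 0.07 in GV3 (adjusted p = 0.456). Its GV1 and GV2 ratios were all above 0, between 0.19 and 0.46, and its signal was low, above background on 11 of 12 arrays in Cy5 and on 10 of 12 in Cy3. All 8 refits lost the GV1 call (adjusted p of 0.0691 to 0.137), and 5 lost that of GV2 (up to 0.0911). SLC3A1, its heavy chain, averaged -0.02, -0.09 and 0.25 and did not pass.

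SLC7A5 (LAT1), the exchanger that brings in leucine and other large neutral amino acids, had ratios of -0.24, -0.23, 0.81 and 2.68 in GV1, -0.02, -0.79, 1.07 and 2.14 in GV2 and 0.11, -0.47, 0.23 and 2.17 in GV3. Area 4 was far above the rest in each stage. The GV1, GV2 and GV3 signals in Cy5 ranged over 0.60, 0.41 and 0.92 log2 units, against 3.09 between the GV0 pools, which were at 12.72, 13.22, 11.59 and 10.13 for areas 1 to 4. The 3 arrays of 1 GV0 pool differed by 0.08 (median of the pools). Means were 0.75, 0.60 and 0.51 ± 0.58, with adjusted p of 0.439, 0.552 and 0.614 in limma and 0.00582, 0.0145 and 0.026 with the area block. The block leaves the range of 3.09 between GV0 pools out of these p-values. Of all kept probes 0.531% had a GV0 range as large.

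Its partner SLC3A2 (4F2hc), the heavy chain of SLC7A5, SLC7A6, SLC7A7 and SLC7A11, had ratios of 0.89, -0.18, 0.71 and 1.07 in GV1, 1.25, -0.51, 0.39 and 0.87 in GV2 and 0.51, -0.48, 0.87 and 0.92 in GV3. Area 2 was below 0 in each stage and the other areas above. The GV0 pools were at 7.81, 8.12, 7.06 and 7.07, a range of 1.06. Means were 0.62, 0.50 and 0.46 ± 0.30, with adjusted p of 0.211, 0.32 and 0.36 in limma and 0.00607, 0.0144 and 0.0197 with the area block.

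SLC1A4 (ASCT1), an exchanger of serine, alanine and threonine, varied most between GV0 pools of all members. At probe EMBV3_38346 the pools were at 10.88, 12.72, 9.07 and 8.76, a range of 3.96 that 0.0496% of kept probes reached. The Cy5 means of the same areas, over GV1, GV2 and GV3, were 11.79, 11.05, 9.32 and 10.19, a range of 2.47, so areas 1 and 2 were above areas 3 and 4 in both channels. Probe EMBV3_07887 had a range of 2.86 between the GV0 pools and of 1.89 in Cy5, and EMBV3_33482, above background in Cy3 on 8 of 12 arrays, had 0.28. No SLC1A4 probe passed, with means between -0.13 and 0.49, or did so with the area block.

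**Figure D4:**
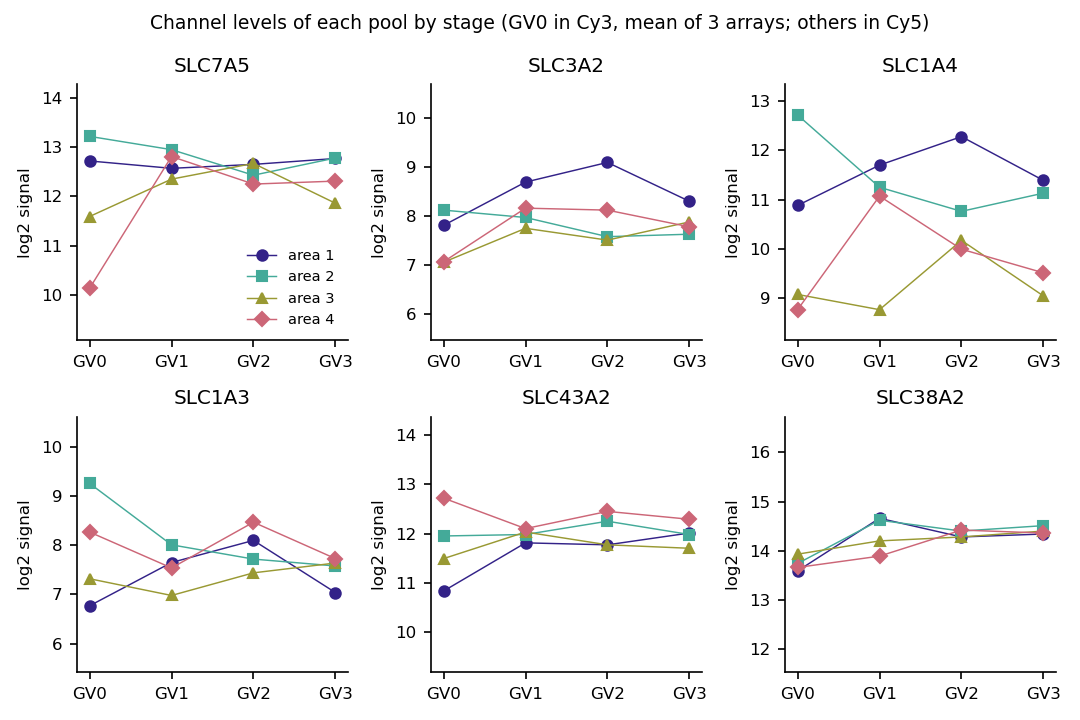
Log2 signal of 6 members by stage, 1 line per area number: GV0 in Cy3 (mean of the 3 arrays of that pool), GV1, GV2 and GV3 in Cy5 (1 array each, the panels spanning the same height). The GV0 values of SLC7A5 run between 10.13 and 13.22 while its other stages lie between 11.86 and 12.95, and SLC38A2 (probe EMBV3_07105) runs between 13.59 and 13.93 in GV0 and between 13.89 and 14.66 in the other stages.

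SLC1A3, a glutamate carrier, had GV0 pools at 6.77, 9.26, 7.32 and 8.27 at probe EMBV3_14869, and means of -0.30, -0.06 and -0.38 ± 0.46 that did not pass. Its probe EMBV3_01723 averaged -0.33 in GV2 and -0.27 in GV3, past the threshold with the area block only (adjusted p of 0.02 and 0.0427). That probe passed the filter through Cy3 alone, so its being lower is no support for a difference. At EMBV3_14869, in area 2, where its GV0 pool was brightest, the ratio was -1.21, -1.55 and -1.70 in GV1, GV2 and GV3. SLC43A2 (LAT4), a carrier of branched-chain amino acids and phenylalanine, had GV0 pools at 10.83, 11.95, 11.49 and 12.72 and ratios of 1.00, 0.15, 0.45 and -0.78 in GV1, 1.13, 0.19, 0.27 and -0.17 in GV2 and 0.96, 0.01, 0.31 and -0.37 in GV3. Area 1 was the highest and area 4 the lowest in each stage. The SLC43A2 means of 0.21, 0.35 and 0.23 ± 0.29 did not pass in limma (adjusted p of 0.693, 0.467 and 0.652), and with the area block GV2 did (adjusted p = 0.0148).

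The spread between GV0 pools is a description of these 4 pools, with no test. Of the 60 member probes 9 had a range of at least 1 log2 unit between the GV0 pools (15%), against 12.7% of all kept probes, which is near the share of the whole array. The median range was 0.35 in the members and 0.38 in all kept probes. For the 3 arrays of 1 pool (median of the 4 pools) the median range was 0.17 and 0.16. In Cy5 the mean of the 3 arrays of an area ranged over 1 log2 unit or more in 3 members (5%), against 3.19% of all kept probes.

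**Figure D5:**
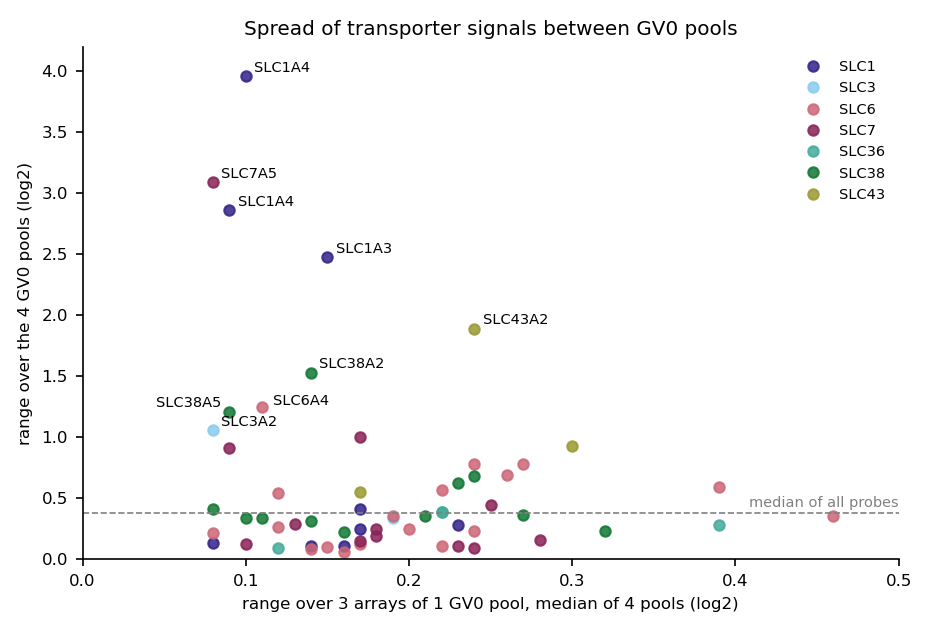
Range of the log2 Cy3 signal over the 4 GV0 pools against the range over the 3 arrays of 1 pool (median of the 4 pools), 1 point per member probe, coloured by family, with the median over all kept probes as a dashed line at 0.38. The 9 named points have a range of at least 1 between pools, SLC1A4 with 3.96 and SLC7A5 with 3.09. The median over the 4 pools of the range within 1 pool is 0.24 at most in those 9, and single pools can differ by more.

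The remaining SLC7 exchangers and cationic carriers did not pass in limma. SLC7A6, an exchanger of cationic for neutral amino acids, averaged 0.68 ± 0.20 in GV1 at probe EMBV3_37549 (adjusted p = 0.0524, and 0.00449 with the area block), with ratios of 0.21, 0.94, 0.35 and 1.23, and all 4 GV1 signals lay above the GV0 pools. In GV2 it averaged 0.36 (adjusted p = 0.272, and 0.0497 with the area block). Its other probes averaged -0.09 (EMBV3_11573) and 0.07 (EMBV3_16961) in GV1, so they did not show the difference of EMBV3_37549. They were dimmer, with mean log2 signals of 7.10 and 6.91 in Cy5 of GV1, against 9.62 for EMBV3_37549. SLC7A7, an exchanger of the same type, averaged 0.04, -0.23 and -0.13 ± 0.26.

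SLC7A11 (xCT), which takes up cystine for glutathione, averaged 0.11, 0.02 and 0.01 ± 0.09 in GV1, GV2 and GV3 (limma adjusted p of 0.479, 0.917 and 0.974). SLC7A1 (CAT1), the main carrier of arginine and lysine in many cells, averaged 0.02, -0.19 and -0.07 ± 0.08 (adjusted p of 0.919, 0.159 and 0.622, with 0.0482 in GV2 with the area block), and it was above background on 0 of 4 GV2 arrays in Cy5. The filter removed the single probes of SLC6A5, SLC1A7, SLC6A12, SLC7A14, SLC1A6 and SLC7A8 and 1 of the 2 of SLC6A4. SLC7A8 (LAT2), another large neutral amino acid exchanger, was above background on 0 of 12 arrays in Cy5 and 1 of 12 in Cy3.

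Between the later stages no member passed. GV2 against GV1, GV3 against GV1 and GV3 against GV2 gave 0 of 60 members in limma, with and without the area block, as they gave 0% of all kept probes, and at an unadjusted p under 0.05 they gave 0, 0 and 1 members where 1.13%, 1.88% and 3.02% of all kept probes did. With the area block the unadjusted counts were 3, 4 and 6 members, where 4.07%, 7.78% and 10.5% of all kept probes did. Without the block the 1 member was SLC7A9, with a log2 difference of -0.23 in GV3 from GV2 (limma unadjusted p = 0.0324, adjusted p = 1, and 0.00627 and 0.373 with the area block). For 50, 50 and 52 of the 60 members the 95% interval of the difference lay within a log2 difference of 1, and with the area block this held for 59, 57 and 58. Intervals without the block were wide in members that vary between pools: for SLC7A5 the GV3 minus GV1 difference of -0.24 had an interval of -2.05 to 1.56, and of -0.70 to 0.21 with the area block. The GV3 minus GV1 difference of SLC6A14 at EMBV3_09122 was 0.84 (interval -0.02 to 1.70, and 0.48 to 1.20 with the area block, adjusted p = 0.573), with 4 of 4 areas above 0, at the probe that passed the filter through GV3.

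Genes around the carriers were read from lists, with 1 probe a gene, over 13534 genes. Of all these genes 3.78%, 4.58% and 4.30% were higher and 5.69%, 5.73% and 6.70% lower in GV1, GV2 and GV3, and with the area block 14.7% to 15.6% were higher and 14.1% to 16.1% lower. Over the 12234 genes above background in each channel 3.31%, 4.06% and 4.01% were higher and 4.75%, 4.94% and 6.02% lower. Of 33 measured genes of amino acid sensing and mTORC1, 1 was higher and 3 lower in GV1, 1 and 1 in GV2, and 2 and 5 in GV3, with median log2 ratios of 0.03, -0.02 and -0.01. With the area block 6, 5 and 5 were higher and 6, 7 and 8 lower. FNIP2, lower in GV1 and GV3, was kept through Cy3 alone, and over the 30 genes above background in each channel 2, 1 and 4 were lower. TSC1, which restrains mTORC1, was higher by 0.59, 0.59 and 0.68 (limma adjusted p of 0.019, 0.0182 and 0.00913), and SESN2, a leucine sensor, was lower, at -0.39, -0.43 and -0.25 (adjusted p of 0.00148, 0.000788 and 0.00908). LAMTOR1, the lysosomal anchor of mTORC1, was at -0.57 in GV1 (adjusted p = 0.0372), -0.51 in GV2 (adjusted p = 0.053) and -0.62 in GV3 (adjusted p = 0.0254). SESN1, a relative of SESN2, and RPS6KB2, a kinase downstream of mTORC1, were lower in GV3, at -0.88 and -0.41 (adjusted p of 0.0308 and 0.0284), with RPS6KB2 above background on 5 of 12 arrays in Cy5 and on 12 of 12 in Cy3. MTOR itself, the kinase of the complex, was higher in GV3 by 0.47 (adjusted p = 0.0415).

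Of 19 measured amino acid carriers of other families, 0 were higher and 2 lower in GV1, 1 and 2 in GV2, and 0 and 2 in GV3. The mitochondrial carriers SLC25A13, for aspartate and glutamate, and SLC25A22, for glutamate, were the lower ones in each comparison, SLC25A13 at -0.37, -0.52 and -0.70 (limma adjusted p of 0.0353, 0.00828 and 0.00189) and SLC25A22 at -0.39, -0.44 and -0.49 (adjusted p of 0.0429, 0.0266 and 0.016). SLC17A7, a vesicular glutamate carrier, was higher in GV2 by 0.85 (adjusted p = 0.0196). The list's median was -0.06, -0.07 and -0.05 in GV1, GV2 and GV3, against 0.00, 0.00 and -0.01 over all genes. The area block gave 3 higher in each comparison and 4, 5 and 4 lower.

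Of 33 genes that use the carried amino acids, 0 were higher and 3 lower in GV1, 0 and 4 in GV2, and 1 and 5 in GV3, with medians of -0.07, -0.14 and -0.19. With the area block 4 were higher in each comparison and 7, 10 and 12 lower. BCAT2, the mitochondrial enzyme that starts the breakdown of branched-chain amino acids, was at -1.41, -1.40 and -1.68 (limma adjusted p of 0.00605, 0.00585 and 0.00229). SHMT2, which makes glycine from serine in mitochondria, was at -0.41, -0.38 and -0.74 (adjusted p of 0.0132, 0.016 and 0.000673), and PSAT1, an enzyme of serine synthesis, was at -1.66 in GV3 (adjusted p = 0.0466). GCLC, the first enzyme of glutathione synthesis, was higher in GV3 by 0.97 (adjusted p = 0.00515).

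Of 20 measured genes of the ATF4 response to amino acid shortage, 0 were higher and 3 lower in GV1, 0 and 3 in GV2, and 0 and 4 in GV3, with medians of -0.14, -0.29 and -0.24. The area block gave 1, 1 and 0 higher and 7, 8 and 9 lower. NUPR1, lower in GV1 and GV2, was kept through Cy3 alone, and over the 18 genes above background in each channel 2, 2 and 4 were lower, and 5, 7 and 9 with the area block. Of all such genes 14.1%, 13.5% and 15.5% were lower with the block. PSAT1, SHMT2 and SESN2 are in this list too. DDIT4, a stress-induced inhibitor of mTORC1, was at -1.52 in GV3 (limma adjusted p = 0.0317). Between GV0 pools 10 of the 20 genes had a range of at least 1 log2 unit, with a median range of 0.90, against 15.9% of all genes and a median of 0.46. Other lists had such ranges too: 10 of 33 genes of sensing and mTORC1 (median 0.64) and 9 of 33 of amino acid use (0.73). So did 5 of 19 carriers of other families (median 0.49) and 3 of 14 cumulus and granulosa markers (0.76). ASNS, the asparagine synthetase that is a standard ATF4 target, had GV0 pools at 13.04, 13.59, 11.88 and 11.98, and TRIB3, an inhibitor of ATF4, at 8.83, 9.69, 7.19 and 7.25.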

How the data were processed

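RNA from pools of bovine cumulus cells was measured on 12 2-colour arrays of 45220 spots. Per the file headers, the deposited scanner tables hold, for each channel, the mean and median spot intensity and the local background intensity, not normalised, and another column, a 0 or 1 flag per spot, whose rule is not given in the sources used here. Log2 ratios are in the series matrix that the authors deposited, and how the authors made them is not given in the sources used here. Its values correlated at 1 (rounded) on each array with the log2 of median Cy5 over Cy3 after loess without background correction, so it runs stage over GV0. Its array medians are -0.01 to 0.00, and it served as an alternative.

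From the mean signals, background was corrected with normexp (offset 50), flagged spots (8 to 106 per array, none of them a member) were left out, and loess was run on the ratios of every array. The tools were R 4.3.3, limma 3.58.1 and statmod 1.5.0. Channel levels are log2 signals after a further quantile step on the mean of both channels. The level of a GV0 pool is the mean of its 3 arrays, and stage signals are set against these means. Probes were kept where either channel exceeded the mean plus 2 SD of 153 negative controls on 3 or more of a stage's 4 arrays. All 36321 kept probes were fitted with 1 coefficient per stage (9 residual degrees of freedom) and p-values were adjusted by Benjamini-Hochberg. An adjusted p under 0.05 counts as passed. The arrays are treated as independent although those of 1 area share a GV0 pool. Against GV0 p-values may therefore run low, and between stages, where the shared pool cancels, they run high, so those differences are also given with the area as a block. GV0 is always in Cy3, so a dye effect stays in ratios to GV0 and cancels between stages. The fit was tested on simulated data in which the noise of the arrays was independent. Shared GV0 pools were not simulated, so that test does not cover them.

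The area number pairs the arrays, as seen in the data: deviations from the stage mean correlated at 0.492 to 0.735 in the 12 pairs of the same area and at -0.464 to 0.0659 in other pairs, and Cy3 levels at 0.989 to 0.997 against 0.933 to 0.971. The area as a fixed block removes the spread between GV0 pools, and is given beside the counts and beside each named member whose call it changes.

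The members and lists were chosen with earlier results of these data known. The text names every member that passed, members picked for their role in amino acid supply whatever their values, and at most 4 genes per list and direction among those that passed. SLC43A1, SLC6A14, SLC6A4, SLC1A3, ASNS, TRIB3, FNIP2, NUPR1, ZP4, BOLA-DRA, PTPRC, INHA, HSD3B1, NR5A1 and the limit of 1 log2 unit between pools were chosen after values were seen. Fitting normexp without the flagged spots was adopted in earlier work on these data after counts had been seen. The filter was first read as the same channel on 3 arrays, which kept 35891 probes with 3957, 4300 and 4412 calls for GV1, GV2 and GV3, and was changed after those were seen to the form above, with 3935, 4270 and 4396. It called the same numbers of members. Symbols are the platform's; all 52 member symbols are current in the RefSeq table of ARS-UCD2.0. Alternatives were the signal, background correction, filter, scaling, block, arrays fitted and left-out arrays. No sequences or coordinates were used here.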

Additional observations from a re-analysis of the deposited data

Results flagged for a closer look

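In 23 named member probes, each group of 4 arrays was searched for 1 array whose gap to the nearest of the other 3, as a share of the group's range, exceeded Dixon's 95% critical value, and 3 of 69 groups held one. Chance gives about 1 in 20 such groups, so this number is no more than chance would give. For SLC1A4 at probe EMBV3_38346, array GV2 2 had a log2 ratio to GV0 of -1.87, against 1.09 to 1.39 on the other GV2 arrays, and its GV0 pool, that of area 2, was the brightest of the 4. For SLC1A2, array GV2 1 was at -0.38, against -0.23 to -0.20 on the others. For SLC6A8, array GV3 4 was at -0.24, against -0.45 to -0.44 on the others.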

How the results depend on the processing

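The counts of members against GV0 depend on the processing, and the 10, 7 and 8 members in GV1, GV2 and GV3 became 1, 2 and 8 with normexp fitted on all spots, 1, 0 and 2 with the median spot signal, 1, 0 and 2 with the series matrix, 4, 4 and 5 where a probe had to exceed background in Cy5 and Cy3 of every array (fewer probes tested), 20, 21 and 20 with the replicate block and 0, 0 and 0 with only the arrays compared (fewer arrays). Over all kept probes the share that passed changed too, from 10.8%, 11.8% and 12.1% in GV1, GV2 and GV3. It was 0.454%, 1.09% and 14.6% with normexp fitted on all spots and 0.771%, 1.22% and 2.11% with the median signal. The series matrix gave 0.840%, 1.39% and 2.05%, and the replicate block 29.5% in GV1 and 29.7% in GV2. In these settings the change was thus not particular to the members. The cause was not tested for the signal, the normexp fit or the series matrix. Leaving out 1 area or 1 array of a stage gave 3 to 5 members in GV1, 2 to 5 in GV2 and 3 to 6 in GV3. Of all kept probes 2.77% to 7.24%, 3.29% to 8.17% and 3.90% to 7.55% then passed. The other settings (no background correction, offset 10, no filter, the same-channel filter and the count over probes above background in each channel, both chosen after seeing the data, scaling, the area as a random effect) stayed within 1.5 times of these counts. Between stages 0 members passed in every setting. Of the 25 calls none changed sign in any setting, 22 were lost under the median signal and 22 under the series matrix, and 0 with the replicate block. The calls held in at least 15 settings numbered 7, with SLC36A4 in GV3 held in 18 of 20. Signals near background limit SLC6A18, SLC38A1, SLC7A9 and SLC1A2, and 4 arrays a stage limit how precise any value can be.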
